A study of Homo sapiens with 6 samples.

Results

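Progression from G1 into S phase is driven by cyclin-dependent kinases (CDKs) and is restrained by small proteins that bind them. The CIP/KIP inhibitors (CDKN1A, encoding p21; CDKN1B, encoding p27; CDKN1C, encoding p57) bind CDK complexes of several kinds, whereas the INK4 inhibitors (CDKN2A, CDKN2B, CDKN2C and CDKN2D) bind CDK4 and CDK6. The GADD45 proteins (GADD45A, GADD45B and GADD45G) are small stress-induced factors that activate the kinase MAP3K4 upstream of p38 and JNK and take part in DNA repair. CDKN1A and GADD45A are textbook DNA damage response genes, while GADD45B is known to respond to TGF-β and NF-κB.

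These 10 genes were taken by symbol from a table of 27009 genes measured by RNA sequencing. The 6 libraries came from cells labelled Hep3B, a hepatocellular carcinoma line, with PD-L1 knocked out in every library. In 3 libraries the knockout cells carried the empty vector, and in 3 they carried nPD-L1, a PD-L1 mutated so that it stays in the nucleus. Both constructs had been delivered as stable lentiviral integrations, nPD-L1 under the CMV promoter, and whether the cells were clones or pools was not stated in the sources used here. The comparison asked how inhibitor and GADD45 transcripts differed between the nPD-L1 and vector groups. Of the 10 genes, 8 had a row in the table, and CDKN2A and CDKN2B were not analysed here.

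Expression is given as scaled reads, that is, the reads on a gene divided by a size factor of the library. Scaled reads summed to 18082164 to 19682128 per library, and the 4 libraries whose whole reads could be recovered held 17427519 to 22253295. A gene was tested when at least 3 libraries reached 10 scaled reads, which 15076 genes did, and it was called when limma gave a Benjamini-Hochberg adjusted p under 0.05 over all of them. Replicates are separate libraries in the labels, which do not say whether they came from separate cultures, so the p values measure the spread between libraries, which may be technical. CD274, the gene of PD-L1, had 38.2 ± 9.77 scaled reads with the vector and 22.3 ± 7.52 in libraries labelled nPD-L1 (SD, n = 3 each), with overlapping groups and an adjusted p of 0.338 by limma. CD274 was therefore not higher in the libraries labelled nPD-L1, and the direction of each difference below is taken from the labels.

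The label of the cells was compared with marker genes. Of 10 hepatocyte markers, 9 had a row and AFP had none. ALB, APOA1, APOB, TTR and TF stayed at or under 2.89 scaled reads in every library, and SERPINA1 was low, at 7.91 to 41.4. FGB was between 962 and 1540 and KRT18 between 15100 and 23424. HNF4A, a hepatocyte transcription factor, was low, at 6.24 to 19.2 with the vector and 33.8 to 51.6 in libraries labelled nPD-L1, and was called higher (adjusted p = 0.0232, limma). That call was lost without any one of the nPD-L1 libraries (adjusted p 0.0633 to 0.134) and in the fits on 4 libraries (0.0545 to 0.0682). The 9 markers together summed to 19523 to 24986 scaled reads with the vector and 16277 to 21790 in libraries labelled nPD-L1. Nearly all of it was KRT18, so the sum says little about the other markers. The label Hep3B was not borne out by most of these markers, since 5 of the 9 lay under the filter and AFP had no row. That label is kept here as given, and the identity of the cells was not tested. Of 9 markers of leukocytes, endothelium, stroma and erythroid cells, 6 had a row, and PTPRC, PECAM1 and VWF stayed at or under 3.03. The stromal markers ACTA2 and LUM were above the floor in every library, at 51.1 to 84.8 and 99.9 to 182 scaled reads, and were not called. The sum of those 6 was 224 to 307 with the vector and 653 to 700 in libraries labelled nPD-L1. COL1A1, a collagen gene, was the one of the 6 that was called, with 49.9 to 82.8 scaled reads with the vector and 445 to 487 in libraries labelled nPD-L1. Whether these markers have a part in the results on the inhibitors was not tested.

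The inhibitor and GADD45 genes did not move as a group, and within each of 2 families the best measured genes went opposite ways. GADD45B rose 3.97-fold and CDKN1A 2.34-fold in the nPD-L1 libraries, while CDKN1B fell to 0.504 and GADD45A to 0.564 of the vector level. CDKN2C and CDKN2D were not called. CDKN1C and GADD45G lay under the filter, with at most 11.1 scaled reads in any library. Of the 6 genes tested, 4 were called, against 4.96% of all tested genes. The 2 called higher stand beside 4.04% of all tested genes, and the 2 called lower beside 0.922%. At a fold change of at least 2 in addition, 2 were higher (2.03% of all tested genes) and 0 were lower (0.451%). On the log2 scale CDKN1B, at -0.99, lay just short of that limit, and GADD45A, at -0.83, lay further from it. The groups did not overlap for 3 genes that were higher (12.0% of all tested genes) and 2 that were lower (8.54%). The median log2 fold change of the 6 was 0.13, against -0.02 over all tested genes. Because each library is RNA from a whole culture, fewer cells with a transcript and less transcript per cell cannot be told apart.

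**Figure D1:**
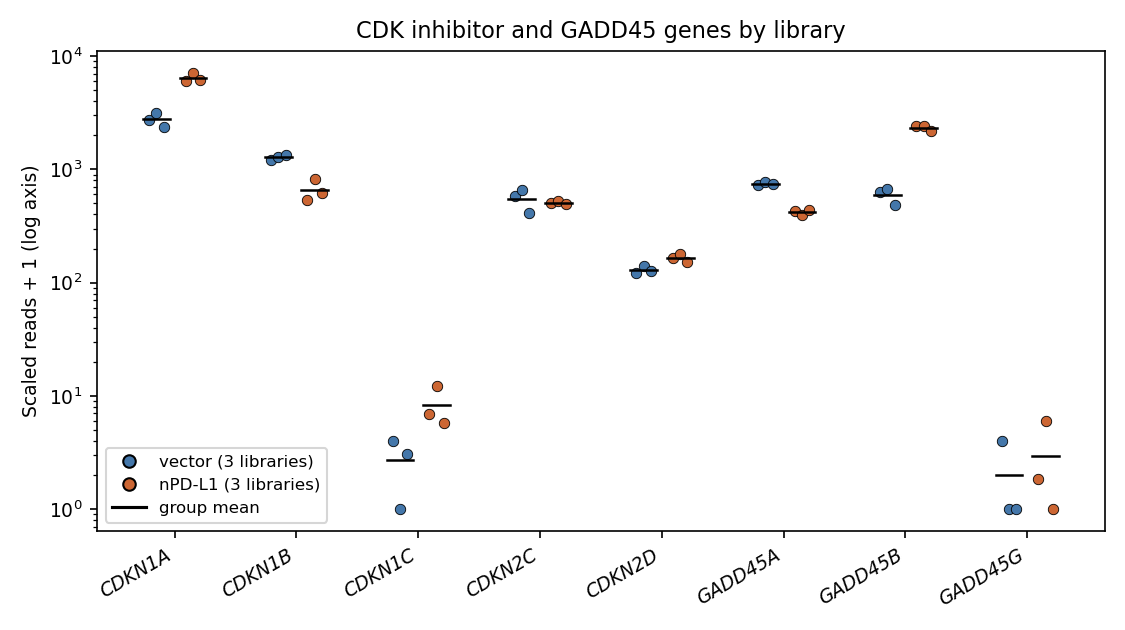
Scaled reads plus 1 (log axis) of the 8 inhibitor and GADD45 genes with a row; each point is 1 library, with 3 vector libraries and 3 nPD-L1 libraries per gene, and bars mark the group mean. The groups are separate for CDKN1A and GADD45B (nPD-L1 higher) and for CDKN1B and GADD45A (nPD-L1 lower). They are also separate, by a smaller margin, for CDKN2D (nPD-L1 higher), which was not called. The groups overlap for CDKN2C and are near the floor for CDKN1C and GADD45G.

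The genes with the 2 largest rises, CDKN1A and GADD45B, have different sequence in front of their RefSeq start sites. It is shown here from the RefSeq promoter table (GRCh38.p14, + strand, 5′ to 3′). Each stretch starts 250 bases before the RefSeq start and ends at the first annotated exon that reaches into those bases. The stretch for CDKN1A is chr6:36678464-36678657 and that for GADD45B is chr19:2475877-2476121. That of CDKN1A lies within the annotated span of the gene, given below, and partly within the noncoding RNA gene DINOL. Capitals mark GC boxes (GGGCGG), E-boxes (CACGTG) and TATA boxes (TATAAA), searched on both strands.
CDKN1A: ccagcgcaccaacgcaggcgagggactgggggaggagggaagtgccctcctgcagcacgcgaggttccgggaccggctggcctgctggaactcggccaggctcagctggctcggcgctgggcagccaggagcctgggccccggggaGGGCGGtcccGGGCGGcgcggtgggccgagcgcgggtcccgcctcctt
GADD45B: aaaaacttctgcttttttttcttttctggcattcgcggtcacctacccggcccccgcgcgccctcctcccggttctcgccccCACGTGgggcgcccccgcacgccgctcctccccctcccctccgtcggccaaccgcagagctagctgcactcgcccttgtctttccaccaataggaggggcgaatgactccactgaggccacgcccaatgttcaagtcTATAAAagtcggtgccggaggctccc
In the 250 bases before the RefSeq start, CDKN1A had 4 GC boxes, at -104, -94, -45 and -40, of which the last 2 share 1 base and lie past the stretch shown. GADD45B had no GC box, an E-box at -168 and a TATA box at -31. Of 35116 promoters of the same length, 42.6% held a GC box, 6.34% an E-box and 10.7% a TATA box, so a GC box is common and the other 2 motifs less so. CDKN1B, which fell, had 1 GC box at -71. The GC content of this window was 76.4% for CDKN1A and 64.4% for CDKN1B. Neither CDKN1A, CDKN1B nor GADD45B held CAGAC (38.0% of promoters), TGACTCA (4.2%), TGACGTCA (1.65%) or GTAAACA (2.98%) in these bases. Promoters were matched for 8 of the 10 genes, and GADD45A and CDKN1C were not among them. These matches describe letters in a short window, and no binding was measured.

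CDKN1A (ENSG00000124762; chr6:36676460-36687339, + strand, GRCh38) encodes p21, the broad CDK inhibitor that holds cells in G1 after damage and in senescence. It had 2747, 3164 and 2380 scaled reads in vector replicates 1, 2 and 3, and 5967, 7149 and 6190 in nPD-L1 replicates 1, 2 and 3. Every nPD-L1 library was far above the highest vector library. The group means were 2764 ± 393 and 6435 ± 628 (SD, n = 3 each), a log2 fold change of 1.22 (SE 0.124, 95% interval 0.95 to 1.50, adjusted p = 0.000169, limma). The exact permutation test over the 6 libraries gave p = 0.1, the smallest value that 3 against 3 allows, here and for every other gene whose groups are separate. DINOL, a noncoding RNA gene at chr6:36677609-36678559 that overlaps CDKN1A, had at most 3.36 scaled reads in any library.

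CDKN1B (ENSG00000111276; chr12:12715058-12722371, + strand) encodes p27, the CIP/KIP inhibitor typical of quiescent cells, whose protein level is set largely by degradation. Its scaled reads were 1197, 1294 and 1350 with the vector and 535, 818 and 612 with nPD-L1, in order of replicate number. The groups were separate, and nPD-L1 replicate 2 was nearest to the vector libraries. The means were 1280 ± 77.4 and 655 ± 146, so that CDKN1B fell by 0.99 on the log2 scale (SE 0.149, 95% interval -1.32 to -0.66, adjusted p = 0.00255, limma). The small noncoding gene AC008115.3, annotated as sense intronic to CDKN1B, had 3.39 to 15.6 scaled reads.

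CDKN1C (ENSG00000129757; chr11:2883213-2885773, - strand), an imprinted gene encoding p57, was barely detected. Its scaled reads were 3.03, 0 and 2.08 with the vector and 5.88, 11.1 and 4.82 with nPD-L1. All 3 nPD-L1 values were above the vector values, but the vector values amount to 3 reads or fewer per library and the gene did not pass the filter. When it was fitted with no filter, limma gave an unadjusted p of 0.0212 and an adjusted p of 0.315.

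Between genes, levels were set side by side as scaled reads per kilobase of the gene length in the table. On this scale CDKN1A was the most abundant CIP/KIP gene in both groups, at 906 ± 129 per kilobase with the vector and 2110 ± 206 with nPD-L1. CDKN1B went from 456 ± 27.5 to 233 ± 52.1, and CDKN1C was at 0.687 ± 0.625 and 2.94 ± 1.36. CDKN1A thus made up 66.3% ± 3.93 of the CIP/KIP level with the vector and 90.0% ± 1.13 with nPD-L1, and CDKN1B 33.6% ± 3.91 and 9.85% ± 1.10. The summed CIP/KIP level was 1362 ± 122 per kilobase with the vector and 2346 ± 259 with nPD-L1. These sums and shares describe the transcripts and carry no test.

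**Figure D2:**
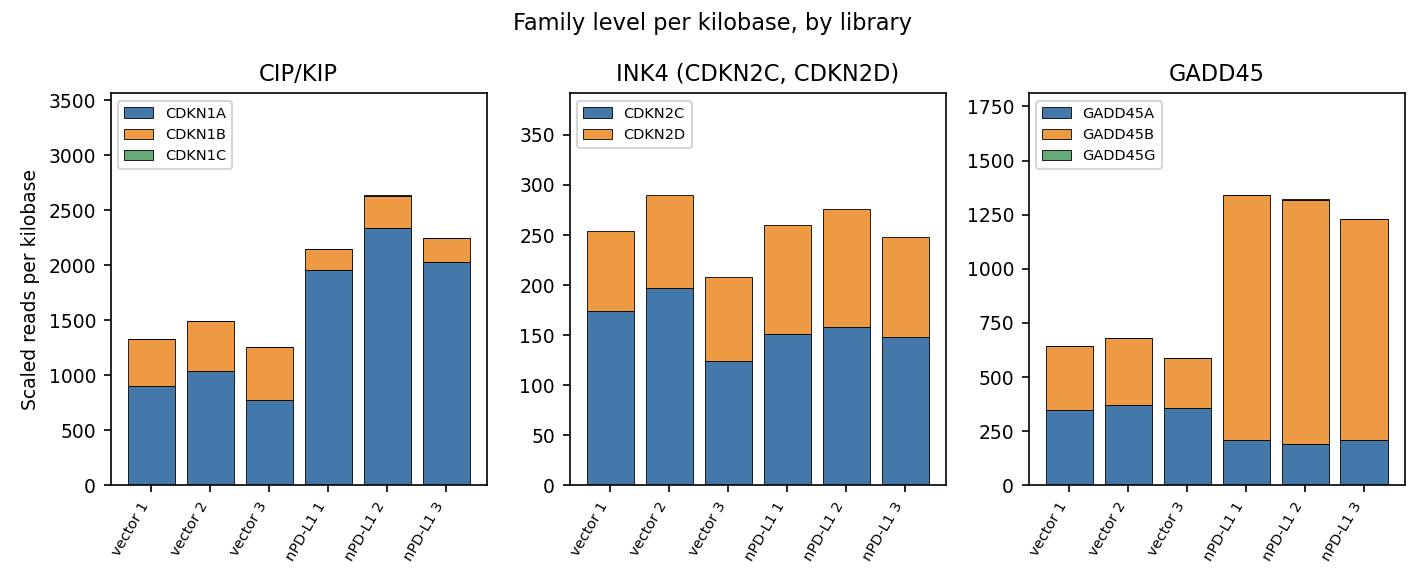
Scaled reads per kilobase of gene length, stacked by gene, in each of the 6 libraries (axes start at 0 and differ between panels) for the CIP/KIP genes, the INK4 genes CDKN2C and CDKN2D, and the GADD45 genes. In the nPD-L1 libraries CDKN1A fills 90.0% of the CIP/KIP level and GADD45B 84.2% of the GADD45 level on average, and the sum of the 2 INK4 genes is 251 per kilobase with the vector and 261 with nPD-L1.

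The INK4 inhibitors that could be measured showed no called difference. CDKN2C (ENSG00000123080; chr1:50960745-50974633, + strand) encodes p18, an inhibitor of CDK4 and CDK6. It had 578, 653 and 411 scaled reads with the vector and 501, 525 and 490 with nPD-L1. The nPD-L1 values all lay inside the wide range of the vector values. The log2 fold change was -0.09 (SE 0.162, 95% interval -0.45 to 0.27, adjusted p = 0.850, limma, and p = 0.7 in the exact permutation test). Without vector replicate 2, the highest vector library, the value was 0.05.

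CDKN2D (ENSG00000129355; chr19:10566462-10569059, - strand), which encodes p19, had 120, 140 and 127 scaled reads with the vector and 164, 177 and 151 with nPD-L1. The groups were separate, with the nPD-L1 libraries higher, yet the log2 fold change of 0.35 (SE 0.158, 95% interval -0.0044 to 0.69) was not called (adjusted p = 0.361, limma). The spread between libraries, 7.87% of the mean in the vector group and 7.78% in the nPD-L1 group, was close to the 8.81% and 7.81% that counting alone would give at this level. Per kilobase, CDKN2C was at 165 ± 37.4 and 152 ± 5.38 and CDKN2D at 85.8 ± 6.75 and 109 ± 8.50 with the vector and with nPD-L1. CDKN2C was therefore the higher of this pair in both groups.

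CDKN2A and CDKN2B, the INK4 genes not analysed here, encode p16 with ARF and p15 from neighbouring positions on chromosome 9. Of the genes around them, MTAP (chr9:21802543-21937651) had 4.52 to 16.6 scaled reads in the 6 libraries. KLHL9, on one side, had 874 to 1198, and DMRTA1, on the other side, had 101 to 161. MTAP was thus near the floor in every library of both groups, while the genes on either side were not.

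The GADD45 genes gave the largest difference of the set. GADD45B (ENSG00000099860; chr19:2476122-2478259, + strand), the GADD45 gene known to be induced by TGF-β, had 627, 664 and 487 scaled reads with the vector. With nPD-L1 it had 2422, 2407 and 2184. The lowest nPD-L1 library was more than 3 times the highest vector library. The means of 593 ± 93.1 and 2338 ± 133 gave a log2 fold change of 1.99 (SE 0.127, 95% interval 1.71 to 2.27, adjusted p = 5.65e-06, limma).

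GADD45A (ENSG00000116717; chr1:67685061-67688338, + strand), the founding damage-inducible gene of the family, moved the other way. Its scaled reads were 721, 768 and 743 with the vector and 429, 394 and 436 with nPD-L1. Both groups were tight, with a spread of 3.18% and 5.28% of the mean, against 3.67% and 4.88% from counting alone. From 744 ± 23.7 to 420 ± 22.2, GADD45A fell by 0.83 on the log2 scale (SE 0.107, 95% interval -1.06 to -0.59, adjusted p = 0.000998, limma). With 2 libraries per group, those with recovered reads, it fell by 0.80, and the adjusted p was 0.0507 by limma, 0.0499 by edgeR and 0.0153 by DESeq2.

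GADD45G (ENSG00000130222; chr9:89605013-89606555, + strand) was at the floor, with 3.03, 0 and 0 scaled reads with the vector and 0.840, 5.06 and 0 with nPD-L1. No fold is given for it, and any difference was not detectable at this depth. Per kilobase, GADD45A was at 360 ± 11.4 and GADD45B at 277 ± 43.6 with the vector, and at 203 ± 10.7 and 1093 ± 62.4 with nPD-L1, so the order of the pair was exchanged. With the vector, the lowest GADD45A value, 348 per kilobase, was above the highest GADD45B value, 311. GADD45B made up 43.3% ± 3.88 of the GADD45 level with the vector and 84.2% ± 1.21 with nPD-L1. The summed level per kilobase was 638 ± 47.6 and 1298 ± 57.6.

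**Figure D3:**
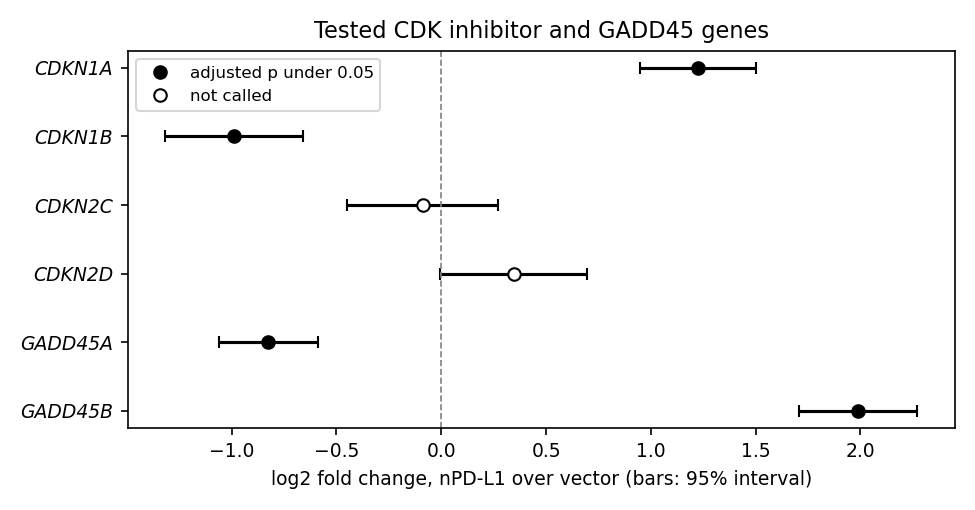
Log2 fold change (nPD-L1 over vector, limma) of the 6 tested inhibitor and GADD45 genes, with 95% intervals as bars; filled points have an adjusted p under 0.05. CDKN1A (1.22) and GADD45B (1.99) lie to the right of 0, CDKN1B (-0.99) and GADD45A (-0.83) to the left, and the intervals of CDKN2C and CDKN2D include 0.

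The contrast within each family was put into 1 number per library, the log2 ratio of the 2 tested genes in scaled reads. For CDKN1A over CDKN1B it was 1.10 ± 0.250 with the vector and 3.31 ± 0.177 with nPD-L1, a difference of 2.21 with no overlap. For GADD45B over GADD45A it was -0.34 ± 0.232 and 2.47 ± 0.143, a difference of 2.81, again with no overlap. For CDKN2C over CDKN2D it was 2.05 ± 0.317 and 1.62 ± 0.063, a difference of -0.43. The two-sided exact permutation test over 20 splits gave p = 0.1, 0.1 and 0.2 for the CIP/KIP, GADD45 and INK4 pairs (adjusted over the 3 pairs, 0.15, 0.15 and 0.2). With 3 libraries per group this test cannot go below 0.1, so it cannot pass 0.05 for any pair.

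The proteins on which the inhibitors act showed no called change in transcript. Of 19 genes of the G1 machinery (CDKs, cyclins, the RB family and E2F factors), 18 were tested and 0 were called by limma, against 4.96% of all tested genes. At an unadjusted p under 0.05 there were 5, against 14.2% of all tested genes. Their log2 fold changes lay between -0.24 and 0.42, with a median of -0.01. CCND1, the cyclin D partner of CDK4 and CDK6, had the most reads, with 9098 ± 1475 scaled reads with the vector and 11830 ± 387 with nPD-L1 (log2 fold change 0.39, adjusted p = 0.142, limma). CCNB1, the mitotic cyclin, was at 4884 ± 554 and 4172 ± 754 (-0.24, adjusted p = 0.517), and CDK1, its kinase, at 3320 ± 227 and 2917 ± 209 (-0.19, adjusted p = 0.468). The smallest adjusted p of the list, 0.0685, belonged to CCNE1, the cyclin of CDK2, at 429 ± 32.8 and 573 ± 19.1. CCNE1 was called in 3 of the alternative fits, and so was CCND1.

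Proteins that degrade the inhibitors were examined because p27 and p21 are turned over by the SKP2 and CDT2 (DTL) ubiquitin ligases. All 10 genes of this list were tested and 0 were called by limma, and 0 had an unadjusted p under 0.05, beside the same shares of all tested genes. DDB1 had 7193 ± 537 and 7306 ± 276 scaled reads with the vector and with nPD-L1, SKP1 had 4692 ± 1206 and 4352 ± 101, and CKS1B, the cofactor with which SKP2 recognises p27, had 3427 ± 593 and 2926 ± 134. Log2 fold changes of the 10 genes lay between -0.21 and 0.17.

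Of 11 partners of the GADD45 proteins, all tested, 1 was called higher and 0 lower, a count near the background of 4.04% higher and 0.922% lower among all tested genes. MAP2K3, a kinase that activates p38, had 2489, 2617 and 2398 scaled reads with the vector and 3289, 3396 and 3152 with nPD-L1 (log2 fold change 0.39, SE 0.092, adjusted p = 0.0349, limma). Its groups were separate, but the call was lost when any library other than vector replicate 2 was left out, with adjusted p values up to 0.218, and on 4 libraries. PCNA, the replication clamp that binds both p21 and GADD45 proteins, was at 8844 ± 940 and 7582 ± 440 (-0.22, adjusted p = 0.428). MAPK9 (JNK2) was at 1508 ± 57.9 and 1487 ± 49.5, and TDG, a DNA glycosylase, at 1239 ± 81.4 and 1547 ± 63.2 (adjusted p = 0.112).

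Other genes known to respond to DNA damage and cell stress were examined because CDKN1A and GADD45A belong to that response. Of 24 such genes, all tested, 2 were called higher and 1 lower, beside 4.04% and 0.922% of all tested genes, with a median log2 fold change of 0.02. Those 3 called genes did not share a direction. PLK3, a stress-responsive kinase, had 296, 256 and 270 scaled reads with the vector and 866, 1020 and 838 with nPD-L1, and it rose by 1.72 on the log2 scale (SE 0.124, adjusted p = 1.30e-05, limma). DDB2, a sensor of ultraviolet damage, went from 1686 ± 82.0 to 2343 ± 186 (0.47, adjusted p = 0.0193, limma). Its call was lost without vector replicate 1 or without any one of the nPD-L1 libraries (adjusted p 0.0582 to 0.105). The DDB2 call was also lost on 4 libraries, with an adjusted p of 0.245 by limma, 0.221 by edgeR and 0.185 by DESeq2. GDF15, a secreted stress cytokine, had 4889, 5270 and 3427 with the vector and 2052, 2021 and 1494 with nPD-L1. GDF15 fell by 1.28 on the log2 scale (SE 0.173, adjusted p = 0.00131), in the direction of GADD45A. Of the uncalled genes of this list with the most reads, TNFRSF10B (a death receptor) was at 3708 ± 234 and 4731 ± 192 with an adjusted p of 0.0695, BAX (a pore-forming apoptosis factor) at 2966 ± 97.1 and 2576 ± 296, and CCNG1 at 2749 ± 453 and 2761 ± 181.

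**Figure D4:**
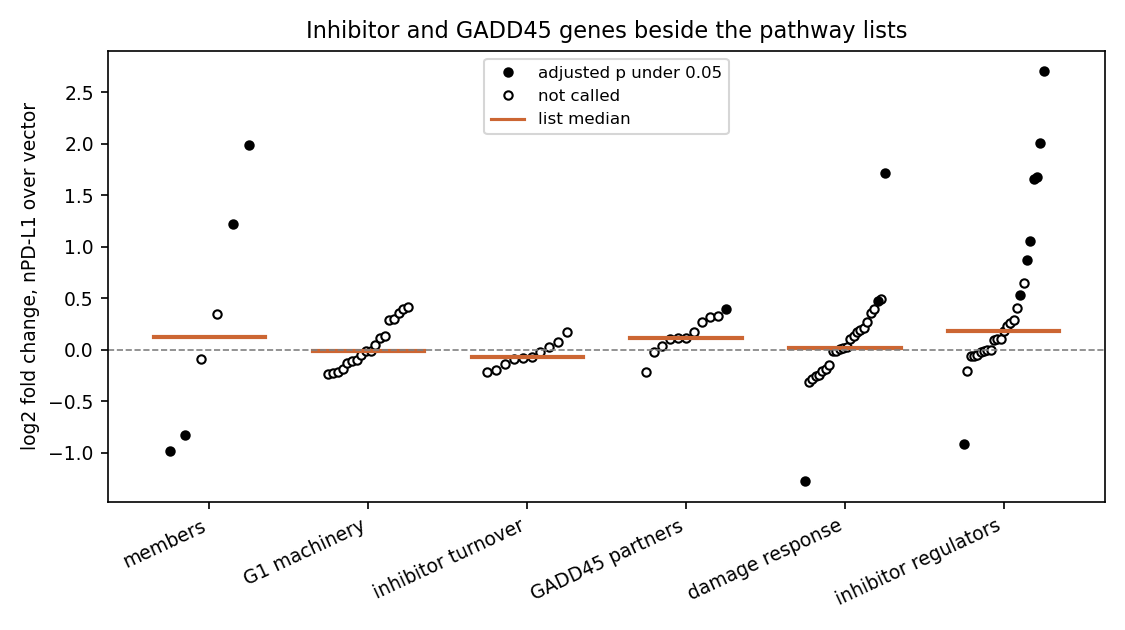
Log2 fold change (nPD-L1 over vector, limma) of each tested gene in the inhibitor and GADD45 set (members) and in 5 pathway lists, sorted within a list; filled points have an adjusted p under 0.05 and the orange line is the list median. The G1 machinery and inhibitor turnover lists hold 0 called genes and lie between -0.24 and 0.42, whereas the damage response genes and the inhibitor regulators include called genes on both sides of 0.

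Regulators known to act on these inhibitor genes held the most called genes of the 5 lists: 7 of 25 were called higher and 1 lower, beside 4.04% and 0.922% of all tested genes. The lists were written with earlier results of these data known, so no conclusion is drawn from how this count compares with those shares. RARA, the retinoic acid receptor alpha, rose by 2.71 on the log2 scale (334 ± 27.7 to 2183 ± 126, adjusted p = 2.34e-07, limma). ETS2 rose by 2.01 (1637 ± 546 to 6388 ± 896), ID1, a TGF-β and BMP family target that counteracts E proteins, by 1.67 (864 ± 101 to 2773 ± 467), and VDR, the vitamin D receptor, by 1.06 (387 ± 66.9 to 800 ± 48.2).

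FOXO1, a forkhead factor known to activate CDKN1A, CDKN1B and GADD45A, had 129, 187 and 143 scaled reads with the vector and 451, 488 and 502 with nPD-L1. It rose by 1.66 on the log2 scale (SE 0.160, adjusted p = 0.000118, limma). Of those 3 genes, CDKN1A was higher and CDKN1B and GADD45A were lower. KLF6, a zinc finger factor known as an activator of CDKN1A, had 1419, 1354 and 1314 with the vector and 605, 773 and 799 with nPD-L1. It fell by 0.92 (SE 0.122, adjusted p = 0.00118, limma), while CDKN1A rose. Whether FOXO1 or KLF6 acted on these inhibitor and GADD45 genes here was not tested. EGR1 (372 ± 84.5 to 686 ± 188, 0.87, adjusted p = 0.0345) and CEBPB (3079 ± 371 to 4448 ± 509, 0.53, adjusted p = 0.0328) were also called higher. EGR1 lost the call without vector replicate 1 or 3 or nPD-L1 replicate 1 or 3 (adjusted p 0.0604 to 0.151), and CEBPB without vector replicate 1 or 3 or nPD-L1 replicate 1 or 2 (0.0719 to 0.166). On 4 libraries the CEBPB call was lost by limma (adjusted p = 0.429), edgeR (0.414) and DESeq2 (0.384). The EGR1 call was lost there by limma (adjusted p = 0.102) and edgeR (0.0889) but not by DESeq2 (0.0290). The regulators with the most reads that were not called were ATF4 (9432 ± 1066 and 9329 ± 532), MYC, a repressor of CDKN1A (6196 ± 533 and 6166 ± 562), and SMAD3, a transducer of TGF-β (5203 ± 844 and 6827 ± 216, 0.40, adjusted p = 0.120).

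Genes close to the inhibitors on the chromosome were also counted. Within 50 kb of the 8 genes with a row lay 22 others, of which 14 were tested and 1 was called, near the 4.96% of all tested genes. That gene was S1PR5, a sphingosine 1-phosphate receptor whose span ends 48531 bases from CDKN2D, with 22.2, 29.4 and 27.0 scaled reads with the vector and 144, 146 and 125 with nPD-L1 (log2 fold change 2.36, adjusted p = 8.71e-05, limma). Few neighbours of the called inhibitor and GADD45 genes could be tested within this distance: 0 for CDKN1A, 2 for CDKN1B, 1 for GADD45A and 3 for GADD45B. Of these, 0 were called.

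For each called gene, the 3 genes with the most similar profile over the 6 libraries were looked up among the 10724 tested genes with a mean of at least 100, as a description without a test. The 6 points fall into 2 groups, so a high correlation here mostly restates the group difference. CDKN1A was followed by CDC42EP4 (Pearson r = 0.999), EFNA1 (0.998) and MEF2A (0.998), and GADD45B by LFNG (0.998), ARHGEF40 (0.998) and KCTD11 (0.997). CDKN1B was followed by INHBB (0.996), LINC00662 (0.990) and ULBP1 (0.987), and GADD45A by PTX3 (0.999), PDK4 (0.997) and TESMIN (0.995). The 2 genes that rose shared none of these genes with each other, nor did the 2 that fell. With only 3 of 10724 genes taken for each, no conclusion is drawn from this.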

How the data were processed

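RNA had been sequenced by a company from NEBNext Ultra libraries. The submitters' processing notes name CASAVA, HISAT2 (version 2.0.5) and hg38, and the read counter was not given in the sources used here. The authors deposited 1 table of 27009 genes whose values per library, although presented as raw counts, are a signal: reads divided by a size factor. Its other columns hold the authors' group means, log2 fold changes, p-values and adjusted p-values, which were not used. Libraries were grouped by their titles.

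The values were tested as log2(value + 1) with limma (version 3.58.1, R 4.3.3), with robust eBayes moderation and an intensity trend. Of all genes, 15076 entered, each having reached a value of 10 in 3 or more libraries. Fold changes on this scale understate those of low genes. edgeR (4.0.16) and DESeq2 (1.42.0) were run on the whole reads recovered in 4 libraries, where 100% of values were whole multiples of 1 read within 0.1 read. In vector replicate 1 and nPD-L1 replicate 2 the step was too close to 1 for this to be accepted. Levels per kilobase used the gene length in the table. Motifs were searched in the 250 bases before each RefSeq start. The fit was tested on simulated data.

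Named genes were the 10 studied, the called genes of each pathway list with up to 3 uncalled ones of highest mean, the 3 genes most like each called gene, and neighbours within 50 kb that were called or overlapped. CCNE1 among the lists, and MTAP, KLHL9 and DMRTA1, were named after their values were seen. Some results for single genes are not reported here. The genes and lists were chosen with earlier results of these data known.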

Additional observations from a re-analysis of the deposited data

How the results depend on the processing

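Across 19 refits (other scalings, pseudocounts, filters, moderation, gene sets, a gene length trend, the replicate block, each library left out, and 4 libraries with 3 tools), CDKN1A, CDKN1B and GADD45B kept direction and call in all 19, with log2 fold changes of 1.12 to 1.33, -1.21 to -0.85 and 1.85 to 2.08. GADD45A kept its direction (-0.85 to -0.77) and was called in 18, so that 1 gene of the set was called lower by limma on 4 libraries. At least 2-fold, 0 were called lower. CDKN2C and CDKN2D were called in 0 of 19, and CDKN2C reversed to 0.052 without vector replicate 2 (range with a library left out -0.28 to 0.052).

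Called genes of the G1 machinery numbered 1 with no filter (CCND1), 1 with the length trend removed (CCNE1), 0 to 1 with a library left out (CCNE1 without vector replicate 2, CCND1 without vector replicate 3), and 5 at an unadjusted p under 0.05. GADD45 partners called numbered 0 to 1 with a library left out, 0 by limma, edgeR and DESeq2 on 4 libraries, 0 at 2-fold and 3 unadjusted. Damage response genes called numbered 2 to 5 with a library left out (5 without vector replicate 2, TNFRSF10B and AEN being added), and 5 unadjusted. Inhibitor regulators called numbered 5 at 2-fold.

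Over all genes, 609 were called higher and 139 lower. Leaving out a library gave 350 to 793 higher and 77 to 244 lower. Higher calls were 356, 403 and 350 without nPD-L1 replicates 1, 2 and 3, and lower calls were 78 without vector replicate 1, 244 without vector replicate 2, and 84, 86 and 77 without nPD-L1 replicates 1, 2 and 3. On 4 libraries, limma gave 254 higher and 53 lower, edgeR 264 and 61, and DESeq2 333 and 85. Unadjusted, 1436 were higher and 710 lower, and at 2-fold 306 and 68. The cause of these shifts was not tested, beyond the fewer libraries or other threshold.

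Whether the replicate numbers of the labels pair the samples was not settled. Deviations of same-numbered libraries correlated at -0.01, 0.23 and 0.13 for replicates 1, 2 and 3. Libraries numbered 2 and 3 correlated best with their own number in the other group, and those numbered 1 did not. With the replicate number as a block, 927 genes were called higher and 258 lower, 2 of the G1 machinery (CCND1 and CCNE1) and 2 GADD45 partners (MAP2K3 and TDG). The block left the family log2 ratios at 2.21, -0.43 and 2.81 and changed no call among the inhibitor and GADD45 genes.

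Depth limits CDKN1C and GADD45G, which had too few reads for a test, and the spread of CDKN2D and GADD45A was close to counting error. With 3 libraries per group, differences of small size, such as that of CDKN2D, could not be settled.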
